A study of Mus musculus with 40 samples.

Results

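The Slc25 family holds the mitochondrial carriers, most of which lie in the inner membrane, and its members were taken here as every protein-coding mouse gene whose symbol is Slc25a followed by a number. The rule found 47 genes. The bulk RNA table of 28467 genes held 46 of them, with Slc25a54 not among its rows, and the table of single nuclei, with 32285 genes, held all 47. In bulk, 41 members passed the filter on low counts at each of the 3 times, and Slc25a2, Slc25a18, Slc25a31, Slc25a41 and Slc25a43 did not pass it at any time.

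Mitochondrial carriers of the inner membrane swap a metabolite of the matrix for one of the cytosol. They exchange ADP and ATP, bring in phosphate, and move dicarboxylates, amino acids, acylcarnitines, nucleotides and cofactors. The kidney's proximal tubule makes most of its ATP by oxidation in mitochondria, so these exchanges feed the reabsorption of salt, glucose and amino acids. Slc25a25, Slc25a23 and Slc25a24 carry ATP-Mg against phosphate and bind calcium on the cytosolic side, and Slc25a20 carries acylcarnitines in and free carnitine out for the oxidation of fatty acids.

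The samples were right kidneys of male C57BL/6 mice of 8 to 12 weeks. The nephrectomy group (UNx) had lost the left kidney, and the sham group had gone through the operation without losing it. Both groups received isoflurane, saline and buprenorphine, so the comparison carries no animal free of surgery. Bulk RNA came from a cross section of the kidney, with 6 mice in each group at 24, 48 and 72 h (36 libraries, stranded and made from polyadenylated RNA). The labels put the 24 h libraries in batch 1 and the 48 h and 72 h libraries in batch 2, so time and batch cannot be told apart. Nuclei sorted on DAPI came from 2 sham and 2 UNx mice at 24 h, with replicate 1 of both groups in batch 3 and replicate 2 in batch 4.

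Bulk libraries held 14.9 M to 24.1 M estimated counts, and the proximal tubule markers summed to 9203 to 10860 CPM (counts scaled to the total of the library) in 24 h shams. Of the 6 UNx libraries at 48 h, replicates 1 to 5 stood apart from replicate 6 and from the 48 h shams. Mitochondrial transcripts made up 25.8% to 26.4% of their counts, against 15.15% in UNx replicate 6 and 14% to 15.48% in the 48 h shams. A score over 271 pseudogenes, set to 1 at the 24 h shams and 0 at the later shams, was 0.64 to 0.717 in these 5 and 0.00628 in UNx replicate 6. It also separated the groups at 24 h, at 0.958 to 1.04 in shams and 0.674 to 0.884 in UNx. The mitochondrial share of the 5 libraries lay in the range of the 24 h libraries (21.5% to 26.7%), which the labels put in another batch. Whether the 5 were handled or labelled differently was not tested, and every 48 h difference carries this limit. The 48 h values of the named members called at that time are therefore given with and without them. Values for UNx replicate 6 alone set 1 library against 6 shams, so their SE and p rest on the spread of the shams. With the score as a covariate no member was called at any time, and the value from that fit is given for most named members that were called. At 24 and 48 h the score follows the groups, except for UNx replicate 6 at 48 h. That fit can hardly tell score and nephrectomy apart there, so a lost call in it is no result about a member. The share of all genes called in that fit is not given here. In bulk tissue, fewer cells of a type and less RNA per cell cannot be told apart.

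Other tissue in the sections varied between single libraries. The summed adipocyte markers reached 346.7 CPM in UNx replicate 4 at 24 h and 265.2 CPM in sham replicate 3 at 48 h, and lay below 1 CPM in all 6 shams at 24 h. At 24 h the fibroblast sum was 46.6 to 83.3 CPM in shams and 66.2 to 173 CPM in UNx, with 1 of 4 markers called higher, and the red blood cell sum was 110 to 176 and 136 to 196 CPM, with 2 of 5 called higher. At 48 h 2 of 4 fibroblast and 2 of 5 red blood cell markers were called lower. Cyp11a1, Cyp21a1 and Ckm, which mark adrenal cortex and skeletal muscle, were at or near 0. The part of these cells in the results below was not tested, except where a value without a library is given.

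Slc25a25 and Slc25a36 were the members called at all 3 times, and their promoters are shown because they were also the only members whose listed promoters held the full cAMP response element. RefSeq promoters (GRCm38.p6, 250 bases before to 50 after a start) were at hand for 36 members in 46 entries. The element, TGACGTCA, its own reverse complement, was in 1.79% of all 32851 promoters. In Slc25a25 it lay in 1 of 3 listed promoters, that of a start inside the gene, 150 bases before the start. In Slc25a36 it lay 161 bases before the start, with the E-box CACGTG, also its own reverse complement, 187 bases before. The E-box was in 7.15% of all promoters and in those of 7 members. The 250 bases before the start, on the minus strand at chr2:32424067-32424316 for Slc25a25 and chr9:97111042-97111291 for Slc25a36, are given 5′ to 3′ with these elements in capitals.
Slc25a25: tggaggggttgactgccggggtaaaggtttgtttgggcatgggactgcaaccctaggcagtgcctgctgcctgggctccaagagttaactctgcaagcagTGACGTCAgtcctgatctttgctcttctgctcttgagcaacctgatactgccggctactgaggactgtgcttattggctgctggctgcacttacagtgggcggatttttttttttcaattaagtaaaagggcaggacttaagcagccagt
Slc25a36: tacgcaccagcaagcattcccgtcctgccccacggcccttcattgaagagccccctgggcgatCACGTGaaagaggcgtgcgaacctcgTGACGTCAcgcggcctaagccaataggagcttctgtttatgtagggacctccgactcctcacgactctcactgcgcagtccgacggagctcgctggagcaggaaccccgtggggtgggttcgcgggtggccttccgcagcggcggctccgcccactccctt
The motifs TCAAGGTCA (0.423% of all promoters) and TGATGNAAT (0.965%), searched on both strands, had no match in a member's listed promoter, nor had the NRF1, PPAR-RXR and glucocorticoid receptor elements. A match describes the letters of the window and shows no binding.

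In sham kidneys the members' levels per length ran from those of ADP/ATP exchange down to below 1 CPM per kb of exon, where Slc25a47 (0.457) and Slc25a27 (0.293) lay. The most abundant member was Slc25a5, an ADP/ATP exchanger, at 461 ± 61.2 CPM per kb of exon (SD, n = 18 shams over the 3 times). Slc25a39, needed for mitochondrial glutathione, followed at 169 ± 14.0, then the ADP/ATP exchanger Slc25a4 at 115 ± 11.6, the phosphate carrier Slc25a3 at 86.0 ± 28.0 and the dicarboxylate carrier Slc25a10 at 85.0 ± 10.8 CPM per kb. The order of these 2 differed between times. Slc25a3 shams were at 42.8 to 51.6 CPM per kb at 24 h, below those of Slc25a10 (75.0 to 99.9). At 48 h they were at 102 to 116, above those of Slc25a10 (70.2 to 85.6), and at 72 h both ranges overlapped. Among the other role groups the highest members were the NAD carrier Slc25a51 (31.5 CPM per kb), the ATP-Mg carrier Slc25a23 (30.7), the aspartate-glutamate carrier Slc25a13 (30.4), the ornithine carrier Slc25a15 (24.6), the uncoupling protein-like Slc25a30 (21.3) and Slc25a34 (11.4). Slc25a20 stood at 9.07 CPM per kb and Slc25a25 was the 26th in order at 5.95 CPM per kb.

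At 24 h more carriers were higher than lower after nephrectomy. Of 41 members tested, 17 were called at an adjusted p under 0.05 (edgeR quasi-likelihood test, Benjamini-Hochberg over all genes), 15 higher and 2 lower in UNx. Of all 14104 genes tested at that time 27.3% were called, 14.2% higher and 13.1% lower. The members' median log2 fold change was 0.17, against 0.00537 over all genes, and 32 members had a positive value, where 50.8% of all genes had one. At 48 h 16 of 41 members were called, 11 higher and 5 lower, against 32.9% of 14280 genes (16.9% higher, 16% lower). The median was −0.0509, against −0.0398 over all genes, and 19 members had a positive value, where 45.3% of all genes had one. At 72 h 3 of 41 were called, 1 higher and 2 lower, against 1.71% of 14556 genes (1.21% higher, 0.502% lower), and 21 had a positive value, where 48.9% of all genes had one.

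Which members were called changed with time. Of the 41, 26 were called at 1 or more times and 2 at all 3. Over the 13874 genes tested at every time, 43 were called higher and 17 lower at all 3. Slc25a15, Slc25a23 and Slc25a30 were called in opposite directions at 24 and 48 h. The shares of all genes called at 1 or more times, or in opposite directions, are not given here. These counts are therefore not read as a trait of the family.

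**Figure D1:**
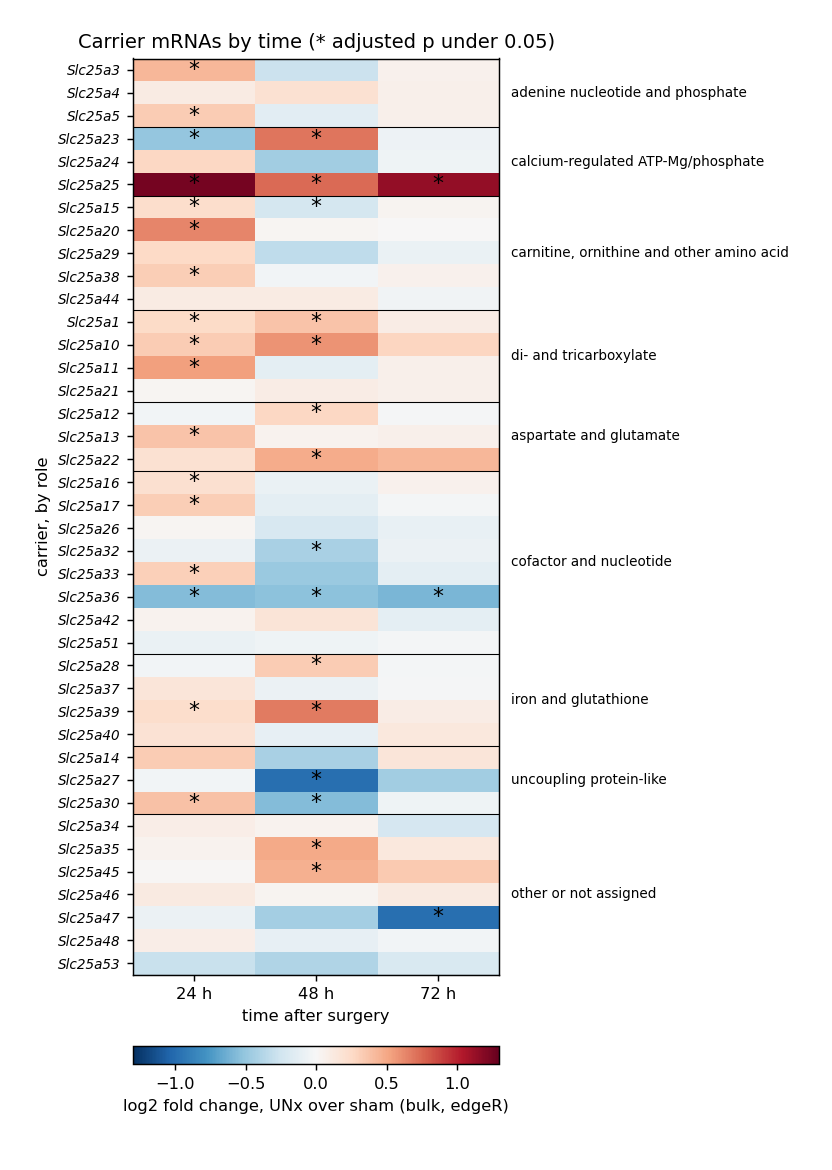
Colour gives the log2 fold change of UNx over sham (6 mice a group) for 40 of the 41 tested members in rows, by time after surgery in columns, and an asterisk marks an adjusted p under 0.05. Slc25a25 is higher and Slc25a36 lower in all 3 columns, and 3 members have an asterisk at 72 h.

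Among the calcium-regulated ATP-Mg carriers, Slc25a25 was higher after nephrectomy at every time. The gene (ENSMUSG00000026819) spans bases 32414487 to 32451445 of chromosome 2 on the minus strand (GENCODE M21, GRCm38). At 24 h its lowest, median and highest values were 44.1, 53.0 and 64.2 CPM in shams and 68.5, 130.2 and 183.1 CPM in UNx. All 6 UNx kidneys lay above all 6 shams, and non-overlapping groups were seen for 10.4% of genes at that time. It rose by 1.25 on the log2 scale (SE 0.18, edgeR adjusted p = 0.000369). Without UNx replicate 4, the library with adipocyte markers, the difference was 1.37 (SE 0.14, edgeR adjusted p = 4.2e-05). With the pseudogene score as a covariate it was 1.08 with a wider error (SE 0.47, adjusted p = 0.543).

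At 48 h Slc25a25 was at 29.4, 40.7 and 66.6 CPM in shams and 63.4, 70.6 and 81.1 CPM in UNx (lowest, median, highest). Of the UNx kidneys 5 of 6 were above every sham. The gene rose by 0.74 (SE 0.15, edgeR adjusted p = 0.00288). UNx replicate 6 alone, at 78.2 CPM, differed from the shams by 0.85 (SE 0.32, adjusted p = 0.277), as far as the mean of replicates 1 to 5 did (0.71). With the score the value was 0.75 (SE 0.26, adjusted p = 0.264).

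At 72 h the values were 28.4, 36.7 and 67.2 CPM in shams and 62.0, 95.6 and 123.6 CPM in UNx. Again 5 of 6 UNx kidneys were above all shams, and the gene rose by 1.14 (SE 0.25, edgeR adjusted p = 0.0357). That call was lost in 8 of the 12 fits that left out 1 library, where the adjusted p ran from 0.0158 to 0.0861. It was also lost with the score (0.68, SE 0.27, edgeR adjusted p = 0.357) and without libraries over 10 CPM of adipocyte markers (1.32, SE 0.31, adjusted p = 0.312). No difference of its UNx effect between times was called, from −0.48 (SE 0.31, adjusted p = 0.227) for 48 h against 24 h to 0.40 (SE 0.31, adjusted p = 0.422) for 72 h against 48 h.

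Its relative Slc25a23, the most abundant of the 3, had other values at each time. At 24 h it was at 191, 226 and 252 CPM in shams and 145, 153 and 201 CPM in UNx, and it fell by 0.50 on the log2 scale (SE 0.08, edgeR adjusted p = 0.000747). The groups overlapped through 1 UNx kidney, replicate 6. Its 24 h shams were 0.83 higher on the log2 scale than the later shams, on CPM scaled within each time, so this size depends on the scaling. At 48 h it was at 112, 119 and 132 CPM in shams and 106, 213 and 235 CPM in UNx, and was called higher by 0.70 (SE 0.15, adjusted p = 0.0037).

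Slc25a23 was above all shams at 48 h in UNx replicates 1 to 5, at 175 to 235 CPM. UNx replicate 6 was below all shams, at 106 CPM (−0.18, SE 0.10, adjusted p = 0.419). With the score as a covariate the 24 h difference turned to 0.12 (adjusted p = 0.908), and at 72 h, where no library stood apart on the score, the difference was −0.06 (adjusted p = 0.75). Slc25a24 was not called at any time.

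**Figure D2:**
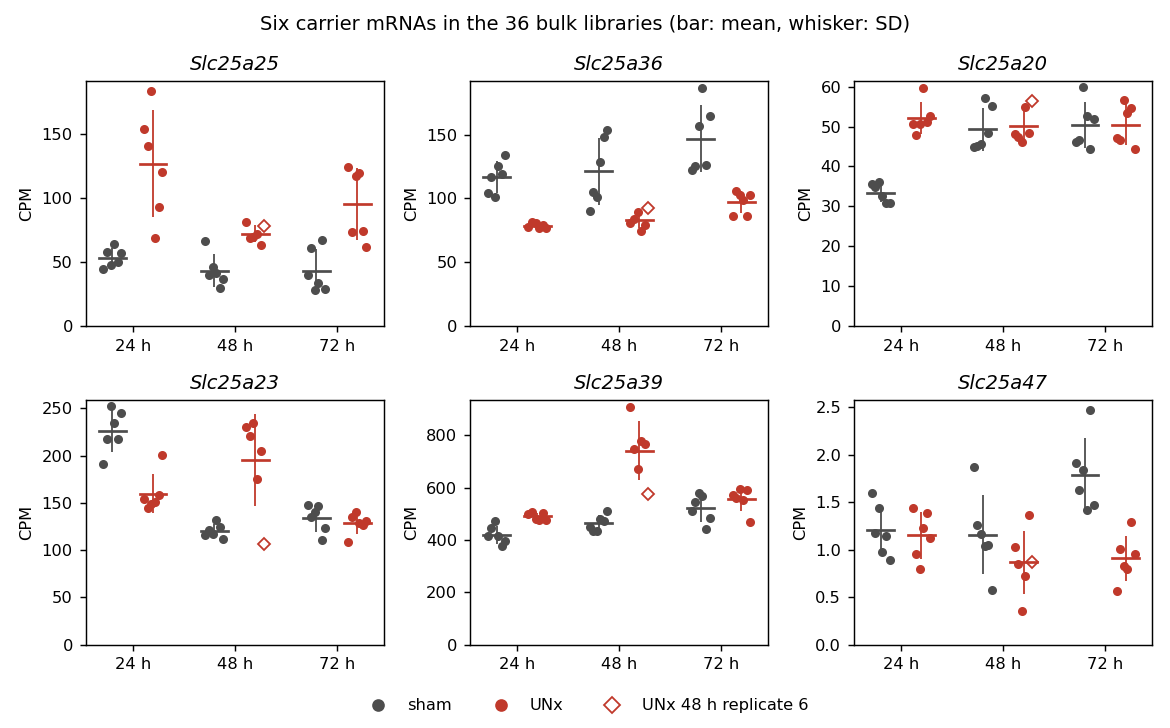
Each point is the CPM of one library, by time after surgery and group (6 mice each), for 6 members; the bar is the mean, the whisker the SD and the diamond UNx replicate 6 at 48 h. Slc25a25 at 24 h runs from 44.1 to 64.2 CPM in shams and from 68.5 to 183.1 CPM in UNx, and in Slc25a23 the diamond lies at 106 CPM, apart from the other 5.

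Of the cofactor and nucleotide carriers, Slc25a36, which moves pyrimidine nucleotides, was lower after nephrectomy at every time. The gene (ENSMUSG00000032449) spans bases 97074961 to 97111157 of chromosome 9 on the minus strand. At 24 h it was at 101, 118 and 134 CPM in shams and 76.5, 78.5 and 81.4 CPM in UNx. The groups did not overlap, the UNx kidneys lay close to each other, and the gene fell by 0.57 on the log2 scale (SE 0.06, edgeR adjusted p = 6.9e-05). With the score it was at −0.51 and lost the call (SE 0.18, adjusted p = 0.365).

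At 48 h the Slc25a36 values were 90.5, 117 and 153.8 CPM in shams and 74.8, 82.2 and 92.9 CPM in UNx, with 5 of 6 UNx kidneys below all shams. The fall was 0.54 (−0.54, SE 0.12, edgeR adjusted p = 0.00516), and for UNx replicate 6 alone the difference was −0.38 (SE 0.28, adjusted p = 0.532). With the score it was −0.30 (SE 0.23, adjusted p = 0.541). At 72 h they were 122.5, 141.4 and 186.4 CPM in shams and 86.4, 100.4 and 105.6 CPM in UNx. The groups did not overlap, as for 2.05% of genes at that time, and the gene fell by 0.60 (SE 0.10, edgeR adjusted p = 0.0128), a call kept in all 12 fits that left out 1 library. The call was lost with the score (−0.58, SE 0.13, edgeR adjusted p = 0.103) and without libraries over 10 CPM of adipocyte markers (−0.56, SE 0.12, adjusted p = 0.297).

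Among the 9 tested cofactor and nucleotide carriers, 3 were called higher and 1 lower at 24 h, and 1 higher and 2 lower at 48 h. Slc25a17, a carrier of CoA and other nucleotide cofactors in the peroxisomal membrane, was at 44.4, 49.8 and 53.9 CPM in 24 h shams and 56.1, 60.6 and 67.8 CPM in UNx, and rose by 0.32 (SE 0.06, edgeR adjusted p = 0.00151) with no overlap. With the score it was at 0.25 (adjusted p = 0.726). At 48 h Slc25a32, which carries folate and FAD, was at 17.5, 19.3 and 20.9 CPM in shams and 12.6, 13.7 and 16.6 CPM in UNx (−0.43, SE 0.08, adjusted p = 0.0019), with −0.20 for replicate 6 alone and −0.23 with the score (adjusted p = 0.423). Its groups did not overlap, as for 11% of genes at 48 h.

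Slc25a20, the carnitine-acylcarnitine exchanger (ENSMUSG00000032602, bases 108662088 to 108684641 of chromosome 9, plus strand), was higher at 24 h and not called later. At 24 h it was at 30.8, 33.7 and 36.0 CPM in shams and 47.9, 50.9 and 59.6 CPM in UNx. The groups did not overlap, and the gene rose by 0.64 (SE 0.06, edgeR adjusted p = 2.19e-05). With the score as a covariate the size was 0.61, with SE 0.16 and an adjusted p of 0.144.

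At 48 h Slc25a20 was at 44.8, 47.0 and 57.1 CPM in shams and 46.0, 48.3 and 56.5 CPM in UNx (0.03, SE 0.08, edgeR adjusted p = 0.819). UNx replicate 6 alone gave 0.20, and the fit with the score 0.22 (edgeR adjusted p = 0.431). At 72 h it was at 44.4, 49.3 and 60.0 CPM in shams and 44.4, 50.3 and 56.7 CPM in UNx (0.01, SE 0.08, adjusted p = 0.98). The groups overlapped at both times. On CPM scaled within each time, the 24 h shams were 0.57 below the later shams (log2 difference −0.57). Levels of different times are not on 1 scale there, so the size of this gap depends on the scaling. The UNx effect was smaller than at 24 h by 0.58 at 48 h (−0.58, SE 0.11, edgeR adjusted p = 0.000101) and by 0.61 at 72 h (−0.61, SE 0.11, adjusted p = 0.0029).

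Of the 5 tested carriers of carnitine, ornithine and other amino acids, 3 were called higher at 24 h and 1 lower at 48 h. That last gene, the ornithine carrier Slc25a15, was at 131, 143 and 150 CPM in 48 h shams and 108, 115 and 149 CPM in UNx, where replicate 6 held the 149 CPM. It was called lower by 0.23 (−0.23, SE 0.08, edgeR adjusted p = 0.0438), lost that call in 10 of 12 fits without 1 library, and for replicate 6 alone was at 0.07 (adjusted p = 0.767) and with the score at 0.085 (adjusted p = 0.704). Its 24 h value was 0.23.

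The adenine nucleotide and phosphate carriers were higher at 24 h in 2 of 3 tested members, with a median of 0.332. Slc25a3, the phosphate carrier, was at 238, 243 and 287 CPM in shams and 297, 348 and 364 CPM in UNx (0.43, SE 0.07, edgeR adjusted p = 0.000416). The ADP/ATP exchanger Slc25a5 was at 570, 591 and 630 CPM in shams and 684, 764 and 790 CPM in UNx (0.33, SE 0.05, adjusted p = 0.000492). Neither pair of groups overlapped.

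With the score as a covariate the 24 h values were 0.02 for Slc25a3 and 0.25 for Slc25a5. On CPM scaled within each time, the level of Slc25a3 in the 24 h shams lay 1.24 below that in the later shams (log2 difference −1.24). The size of this gap depends on the scaling. At 48 h no member of this group was called, and Slc25a3 had 417 to 484 CPM in UNx replicates 1 to 5 and 704 CPM in replicate 6, against a sham median of 592 CPM.

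All 4 di- and tricarboxylate carriers had positive values at 24 h and 3 were called higher (median 0.289). Slc25a11, which exchanges oxoglutarate for malate, was at 47.8, 54.4 and 66.8 CPM in shams and 72.0, 79.9 and 84.4 CPM in UNx. The groups did not overlap, and it rose by 0.53 (SE 0.07, edgeR adjusted p = 0.000253), or 0.22 with the score as a covariate. On CPM scaled within each time, its 24 h shams lay below the later shams (log2 difference −1.31). At 48 h 2 of 4 were called higher, among them the dicarboxylate carrier Slc25a10, at 243, 268 and 296 CPM in shams and 309, 402 and 495 CPM in UNx (0.58, SE 0.10, adjusted p = 0.00135). Its UNx replicate 6, at 351 CPM, was also above all shams (0.38, SE 0.11, adjusted p = 0.202), and with the score the value was 0.40 (adjusted p = 0.330).

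Of the 3 tested aspartate and glutamate carriers, 1 was called higher at 24 h and 2 at 48 h. At 24 h this was Slc25a13, an aspartate-glutamate carrier of the malate-aspartate shuttle, at 84.4, 92.7 and 99.0 CPM in shams and 105, 124 and 128 CPM in UNx (0.37, SE 0.06, edgeR adjusted p = 0.00092), or 0.11 with the score (adjusted p = 0.937). At 48 h its sister Slc25a12 was at 67.5, 70.5 and 76.6 CPM in shams and 77.9, 87.8 and 91.5 CPM in UNx (0.27, SE 0.06, adjusted p = 0.0031). The glutamate carrier Slc25a22 was called higher by 0.48 (SE 0.11, adjusted p = 0.005). UNx replicate 6 alone gave 0.12 for each of the 48 h genes, and the score 0.14 for each, with no call.

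In the iron and glutathione group, 1 of 4 members was called higher at 24 h and 2 at 48 h. Slc25a39 was at 433, 461 and 511 CPM in 48 h shams and 576, 756 and 910 CPM in UNx, with replicate 6 at 576 CPM, the lowest of the UNx kidneys. The groups did not overlap, and it rose by 0.68 (SE 0.10, edgeR adjusted p = 0.000455). For replicate 6 alone the value was 0.31 (SE 0.11, adjusted p = 0.246), and with the score 0.35 (adjusted p = 0.308).

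The uncoupling protein-like members went from 1 of 3 called higher at 24 h to 2 of 3 called lower at 48 h. Slc25a27, known as UCP4, was scarce, at 0.98, 1.24 and 1.49 CPM in 48 h shams and 0.29, 0.62 and 0.89 CPM in UNx (−0.98, SE 0.25, edgeR adjusted p = 0.0098). Slc25a30, called higher at 24 h (0.38), was at 75.4, 116 and 150 CPM in 48 h shams and 55.2, 73.1 and 95.3 CPM in UNx (−0.57, SE 0.18, adjusted p = 0.0287). The groups of Slc25a27 did not overlap and those of Slc25a30 did, and the Slc25a30 call was lost in 5 of 12 fits without 1 library. Replicate 6 alone gave −0.77 and −0.29, and the score −0.76 and −0.19, with no call.

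Of the 7 tested members with other or unassigned roles, none was called at 24 h, 2 were called higher at 48 h and 1 lower at 72 h. At 48 h Slc25a45 was called higher by 0.46 (SE 0.08, edgeR adjusted p = 0.0013), and was at 0.35 in replicate 6 alone and at 0.31 with the score (adjusted p = 0.321). At 72 h the scarce Slc25a47 was at 1.41, 1.73 and 2.47 CPM in shams and 0.568, 0.894 and 1.29 CPM in UNx (−0.98, SE 0.20, adjusted p = 0.028). The groups did not overlap, and leaving out 1 library gave adjusted p from 0.0261 to 0.0652. With the score the value was −0.86 (adjusted p = 0.202), and without libraries over 10 CPM of adipocyte markers −1.56 (adjusted p = 0.283).

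At 48 h only Slc25a25 of the 16 called members was at least as far from the shams in UNx replicate 6 as in the mean of replicates 1 to 5. Replicate 6 had the same sign as the others in 13 of the 16 and lay inside the sham range in 7. Over all 41 members the sign was shared in 25. The 16 were picked by a test in which 5 of the 6 UNx libraries were replicates 1 to 5, which favours genes that differ more in those. The same counts over all genes are not given here, so they set no member apart from other genes. Without UNx replicates 1 to 5 no member and no gene was called by edgeR, and 7 members had an unadjusted p under 0.05, in a design with 1 UNx library left.

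**Figure D3:**
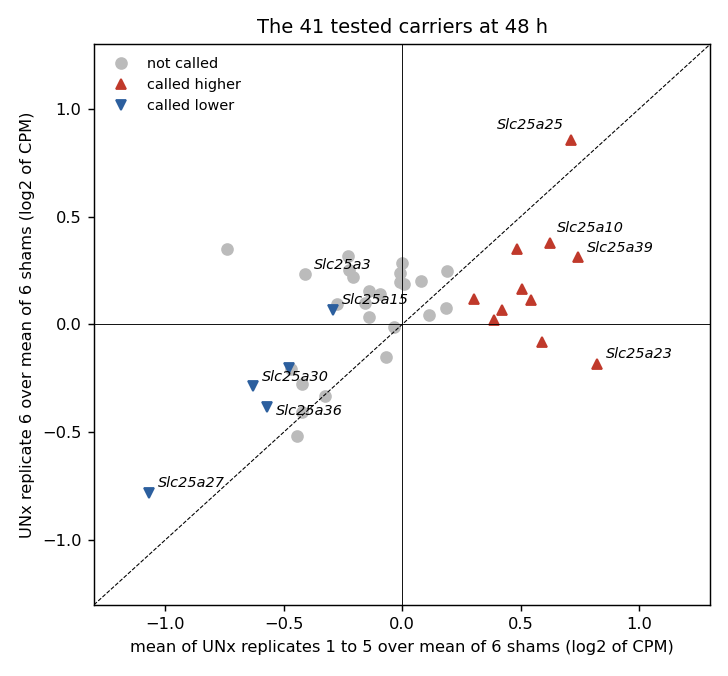
Each point is a member at 48 h, with the log2 ratio of the mean CPM of UNx replicates 1 to 5 to the sham mean on the x axis and that of UNx replicate 6 on the y axis. Slc25a25 lies at 0.71 and 0.85, and Slc25a23 at 0.82 and −0.18.

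The UNx effect itself was compared between times in 1 fit over all 36 libraries. From 24 to 48 h it differed for 20 of 41 members, 7 more positive and 13 more negative, against 37% of 15093 genes (19.3% and 17.7%). Slc25a23 moved by 1.23 (SE 0.17, edgeR adjusted p = 9.9e-07), Slc25a39 by 0.48 and Slc25a12 by 0.34, while Slc25a3 moved by −0.68 (SE 0.13, adjusted p = 7.8e-05) and Slc25a11 by −0.63 (SE 0.12, adjusted p = 0.00013). From 48 to 72 h 7 members differed (14.6% of genes, 5.86% more positive and 8.78% more negative), among them Slc25a14, an uncoupling protein-like carrier, by 0.57, Slc25a32 by 0.34, Slc25a23 by −0.77, Slc25a39 by −0.59 and Slc25a12 by −0.29. From 24 to 72 h 2 members differed (4.15% of genes, 2.74% more positive and 1.41% more negative), Slc25a20 and Slc25a11 (−0.45, SE 0.12, adjusted p = 0.0269). With the score no member differed between any 2 times, and from 24 to 48 h Slc25a3 turned to 0.13, Slc25a11 to 0.060 and Slc25a23 was at 0.015. The first pair of differences share the 48 h libraries, UNx replicates 1 to 5 among them, and time cannot be told apart from batch in those against 24 h.

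Genes that work with the carriers were mixed. Of 6 carnitine shuttle partners 2 were called higher and 1 lower at both 24 and 48 h, led by the plasma membrane carnitine transporter Slc22a5 at 24 h (0.51, SE 0.05, edgeR adjusted p = 5.1e-05) and carnitine acetyltransferase Crat at 48 h (0.50, SE 0.08, adjusted p = 0.00089). Slc22a5 was itself the partner called lower at 48 h (−0.48, SE 0.16, adjusted p = 0.039). Of 4 malate-aspartate shuttle enzymes 3 were called higher at 24 h, with the aminotransferase Got1 at 0.47, and 2 at 48 h, with malate dehydrogenase Mdh2 at 0.44. No shuttle enzyme was called lower.

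Of the 9 genes of the carrier import machinery, 2 were called higher at 24 h (Timm9, a chaperone of the intermembrane space, at 0.52) and 2 higher and 1 lower at 48 h (Tomm40, the outer membrane pore, at 0.35). Timm9 was the one called lower at 48 h (−0.46, edgeR adjusted p = 0.0485). Of 8 genes for calcium channels and exchangers, 2 were called higher and 3 lower at 24 h, and 4 higher and 1 lower at 48 h (Slc8b1, the sodium-calcium exchanger, at −0.68). Among pyruvate carriers and sideroflexins 2 of 7 were higher and 1 lower at 24 h, and 1 higher and 1 lower at 48 h, with the serine carrier Sfxn1 at 0.39 and 0.40. Of the 3 porins, 1 was higher and 1 lower at 24 h (Vdac3 0.30) and 1 higher at 48 h (Vdac2 0.31). Of the relatives with other symbols, 1 of 3 was higher and 1 lower at 24 h (Mtch1 −0.17), and 2 of 5 were higher at 48 h (Ucp2 0.63). No gene of these 7 lists was called at 72 h, when 1.71% of all genes were called.

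The nuclei showed where in the kidney each carrier was transcribed. There were 16500 nuclei, 5342 and 2641 from sham replicates 1 and 2 and 5151 and 3366 from UNx replicates 1 and 2, with median UMI counts of 7582 to 9909 per nucleus, and 18 cell barcodes occurred in more than 1 library. Of the 30 deposited classes 23 had at least 10 nuclei in every mouse. Among proximal tubule genes, Slc34a1 and Slc5a12 were highest in class PTS1, the endocytic receptor Lrp2 in PTS2 and Slc7a13 in PTS3. Slc12a1 of the thick ascending limb was highest in MTAL and nearly as high in CTAL2. Other markers of that limb were highest elsewhere, Umod and Kcnj1 in CTAL2 and Cldn16 in CTAL1. Slc12a3 of the distal convoluted tubule was highest in DCT. Of the principal cell markers only Aqp2 was highest in MPC, with Aqp3 highest in CPC and Scnn1b and Scnn1g in CNT. Slc25a21, highest in the proximal classes, was also counted in the fibroblast class Fib. It was at 28.6 and 42.8 CPM there in replicate 1 mice (sham, UNx) and at 526 and 608 CPM in replicate 2 mice. Whether these counts were transcripts from other cells was not tested.

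Slc25a21, the 2-oxoadipate carrier of lysine and tryptophan breakdown, was the most abundant member in nuclei but 30th in bulk CPM. It reached 18.3 UMIs per 10000 in PTS3 (13.6 to 23.2 over the 4 mice), 17.5 in PTS2 and 10.8 in PTS1, and its PTS3 level was 4.19 times its mean over classes. The class PEC, with 15 to 31 nuclei a mouse, was close to PTS1 at 10.3. Its gene spans 485 kb. Over 46 members the ratio of nuclear to bulk level had a Spearman correlation of 0.544 with gene span, a description over genes that share libraries. Slc25a48 was highest in MPC, at 1.19 UMIs per 10000 (0.592 to 1.76), 5.4 times its mean over classes.

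Other carriers were spread along the nephron. Slc25a13 was at 5.38 UMIs per 10000 in PTS2, whereas Slc25a12 was highest in CTAL1 (4.31), CNT (4.26) and DCT (4.16). Slc25a30 was at 2.77 in CTAL1 and Slc25a51 at 1.89 in PTS1. Of the 25 members that reached 0.5 UMIs per 10000 in some class, 8 had their highest class among PTS1 to PTS3. Over the 4 mice Slc25a25 was highest in the endothelial class EC1 (0.698, from 0.405 to 0.888) and next in PTS2 (0.673, from 0.285 in a sham to 1.04 in a UNx mouse). In the sham mice alone its highest class was ICB, at 2.13 times its sham mean over classes.

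**Figure D4:**
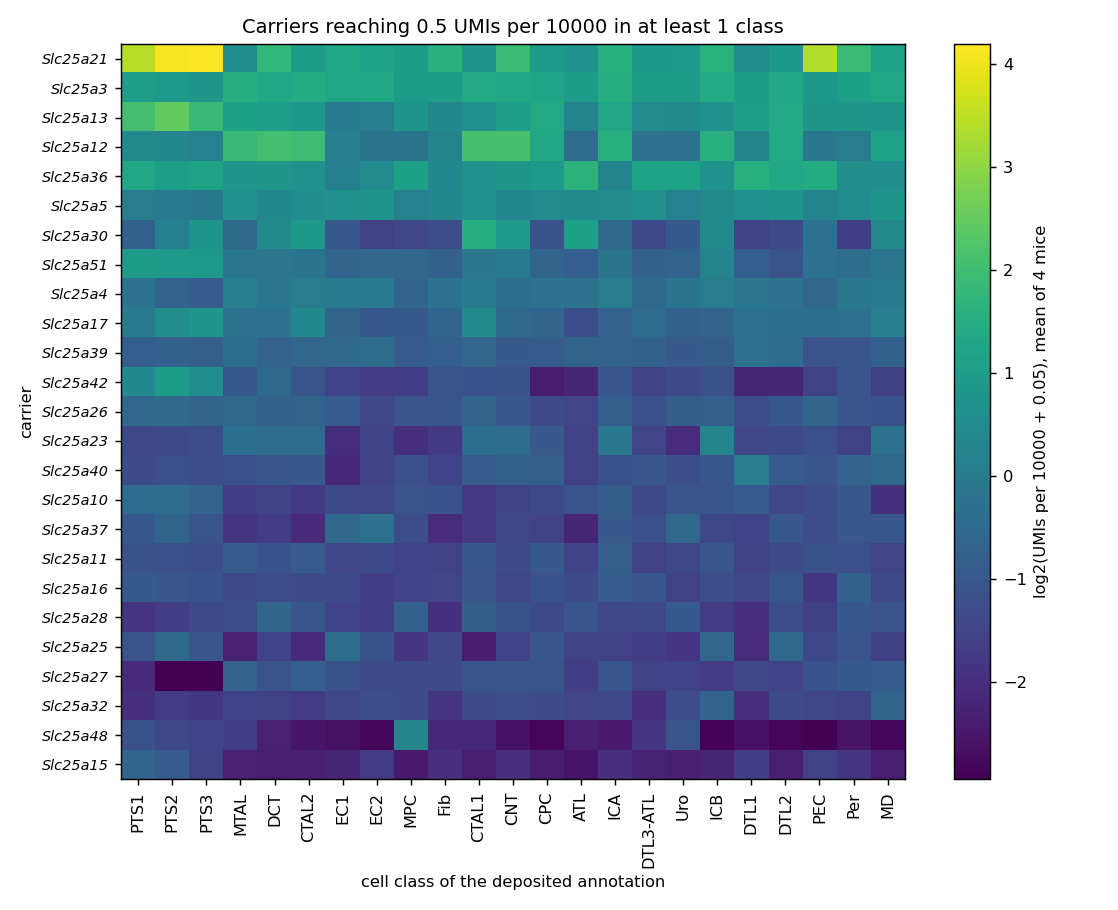
Colour gives the mean level over 4 mice, in UMIs per 10000, of the 25 members that reach 0.5 in some class, by the 23 classes. Slc25a21 stands out in PTS1 to PTS3, at 10.8 to 18.3, and in PEC, at 10.3, and Slc25a48 in MPC, at 1.19.

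In the nuclei Slc25a25 had higher and Slc25a36 lower values after nephrectomy in proximal tubule classes and in most others. Neither passed the test without the batch in the model. That test, edgeR on counts summed per mouse with 2 mice a group, called 0 of 44 members over all nuclei and 0% of 19975 genes (360 genes and 1 member at an unadjusted p under 0.05), and DESeq2 called 25 genes and 0 members. Over the 23 classes it called 0 of 701 pairs of a member and a class (9 at an unadjusted p under 0.05); 0% of 219721 pairs of a gene and a class were called, 1530 at an unadjusted p under 0.05. The labels place replicate 1 and replicate 2 in different batches, so the replicate block was fitted as well. With the block, 1 of 44 members was called over all nuclei, against 1.04% of genes. Over the classes 7 of the 701 pairs were called, or close to the background of 0.721% of all 219721 pairs.

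Slc25a25 was at 26.3 and 28.6 CPM in the sham mice (replicates 1 and 2) and 51.4 and 60.0 CPM in the UNx mice over all nuclei. Both UNx mice were above both shams, and the difference was 1.02 (SE 0.09, edgeR with the replicate block, adjusted p = 0.0200; adjusted p = 1 without it). In PTS2 it was at 28.8 and 36.2 CPM in sham and 104.7 and 100.6 CPM in UNx, the largest separation among the 3 proximal classes. There it rose by 1.67 (SE 0.16, adjusted p = 0.000322 with the block, against 2.99% of genes called), and DESeq2 without the block called it too (1.67, adjusted p = 0.00145).

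In PTS1 Slc25a25 was at 26.9 and 26.7 CPM in sham and 60.3 and 53.3 CPM in UNx, and rose by 1.08 (SE 0.15, edgeR with the block, adjusted p = 0.0109, against 1.63% of genes). In PTS3 it was at 34.7 and 30.4 CPM in sham and 47.2 and 64.7 CPM in UNx (0.75, adjusted p = 0.0686, against 2.47% of genes). In no other class was it called with the block. The class CTAL2 had 13.6 and 11.2 CPM in sham and 19.3 and 31.6 CPM in UNx (0.92, SE 0.36, adjusted p = 0.513), a larger value than in PTS3. MTAL had 9.14 and 17.7 CPM in sham and 11.9 and 23.8 CPM in UNx (0.40, SE 0.28, adjusted p = 0.75), with the UNx mouse higher in both batches. Without the block the gene had a higher UNx value in 15 of the 19 classes where it was tested. The difference of its effect between classes was not tested.

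Slc25a36 was at 269 and 205 CPM in sham and 187 and 126 CPM in UNx mice over all nuclei (−0.61, edgeR with the block, adjusted p = 0.0513). Each UNx mouse was below both shams. It was called lower with the block in PTS1 (420 and 214 CPM in sham, 243 and 125 CPM in UNx, −0.78, adjusted p = 0.019), where sham replicate 2 lay below UNx replicate 1. The same held in PTS2 (301 and 224 CPM, 191 and 92.0 CPM, −0.96, adjusted p = 0.0134) and PTS3 (326 and 240 CPM, 188 and 127 CPM, −0.85, adjusted p = 0.0127) without such overlap. Outside the proximal classes Slc25a36 was not called but was below 0 in every class except ICA (0.16) and Uro (0.11). It was at −0.60 in CNT (SE 0.17, adjusted p = 0.146) and −0.46 in DCT (SE 0.13, adjusted p = 0.195). The difference of its effect between classes was not tested.

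Slc25a48 was the other member called in a class. In PTS2 it was at 27.0 and 20.5 CPM in sham and 41.7 and 44.3 CPM in UNx (0.85, edgeR with the block, adjusted p = 0.0367), and in PTS3 at 17.0 and 23.6 CPM in sham and 36.0 and 44.7 CPM in UNx (1.01, adjusted p = 0.0136). Both UNx mice were above both shams in these classes. Bulk kidneys at 24 h had 24.7 to 28.6 CPM in shams and 22.8 to 35.7 CPM in UNx (0.09, SE 0.09, edgeR adjusted p = 0.476). Slc25a48 was not called in bulk at any time. Other classes had values of like size with the block but no call, as in CTAL2 (0.96), Fib (0.84) and MTAL (0.65), while CPC (−0.75) and EC1 (−0.03) were below 0. In MPC, its highest class, the sham mice were at 180 and 57 CPM and the UNx mice at 134 and 117 CPM, with overlap. The class Fib held 1.79 and 4.28 CPM in replicate 1 mice and 25.4 and 43.8 CPM in replicate 2 mice. The part of transcripts from other cells in these values and in the differences was not tested.

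**Figure D5:**
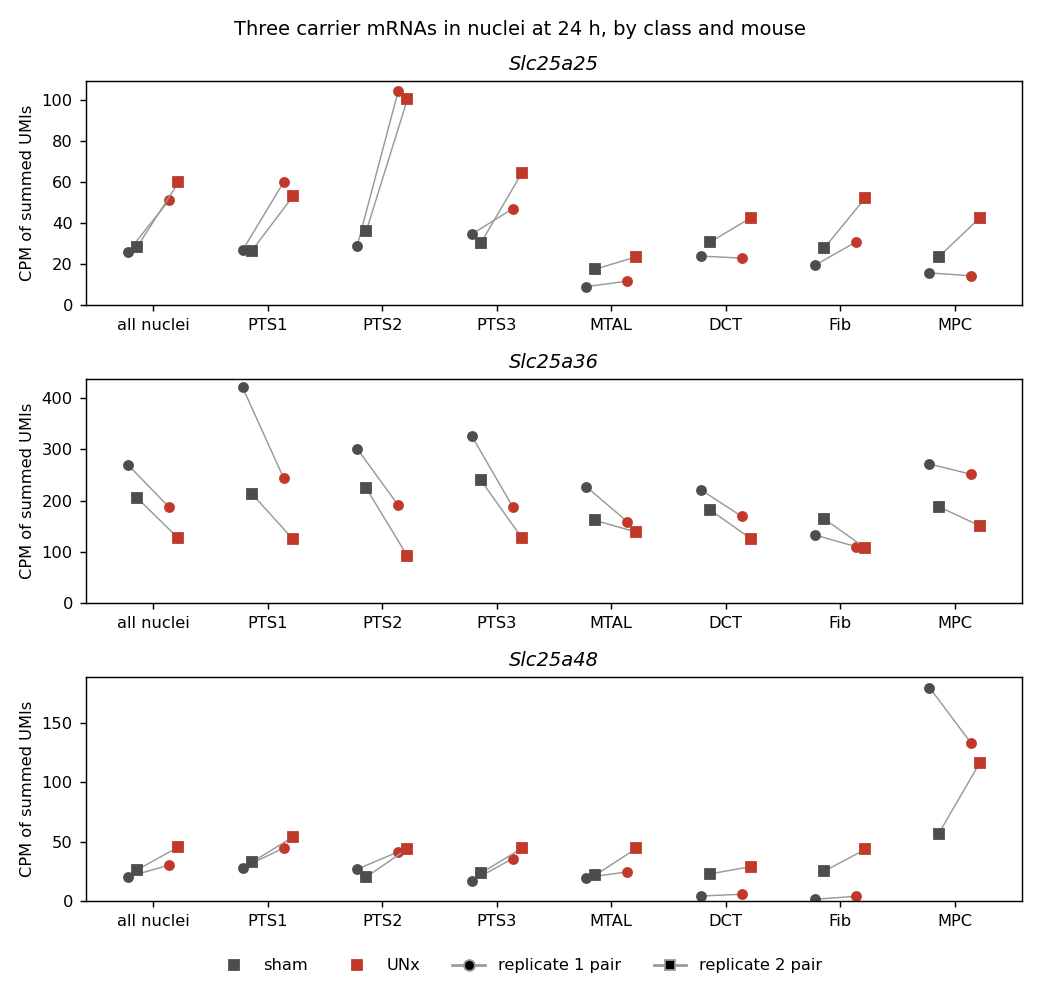
CPM of Slc25a25, Slc25a36 and Slc25a48 in the nuclei of each mouse at 24 h, by class, with a line joining sham and UNx of the same replicate number (batch). In PTS2 both lines of Slc25a25 rise, from 28.8 to 104.7 and from 36.2 to 100.6 CPM, and both lines of Slc25a36 fall.

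Slc25a20, called higher at 24 h in bulk, was at 40.1 and 32.2 CPM in sham nuclei and 36.0 and 41.5 CPM in UNx nuclei. The mice of the groups overlapped, and the difference was 0.10 (SE 0.20, edgeR unadjusted p = 0.635). It was −0.32 in PTS1, −0.09 in PTS2 and −0.09 in PTS3. Slc25a27 was at 36.3 and 24.5 CPM in sham and 23.4 and 17.3 CPM in UNx nuclei (−0.57, adjusted p = 0.0718 with the block).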

How the data were processed

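Bulk RNA was measured in 36 libraries and nuclei in 4. The authors deposited estimated counts per gene, made with Salmon 1.5.0 on GRCm39 after FastQC 0.11.8 (R 4.10), and, for nuclei, estimated UMI counts from alevin on mm10 with Seurat, per the submitters' processing notes. The deposited class annotation was used in its 30-class form, and the treatment of doublets is not given in the sources used here. The lowest UMI count of a nucleus was 1755.

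Estimated counts were rounded (for nuclei after summing per mouse and class) and tested with edgeR 4.0.16 (R 4.3.3), using filterByExpr, TMM scaling and the quasi-likelihood test within each time, adjusted over all genes, with calls at 0.05. CPM values are TMM-scaled, and SE is the log2 fold change over the root of F. GENCODE M21 named 28340 of 28467 bulk genes and gave exon lengths. DESeq2 1.42.0 and limma 3.58.1 (voom) were alternatives. On simulated data with 200 changed genes the bulk fits recovered 64%, 42% and 56% of changes of 0.5 (24, 48, 72 h). They recovered 90%, 89% and 83% of changes of 1, and 6.1%, 4.38% and 1.42% of their calls were false. In the data far more genes were called at 24 and 48 h (3852 and 4696), so these rates need not hold there. The unblocked nuclei fits recovered 0% of changes of 1 over all nuclei and in PTS2.

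The members, role groups and gene lists were chosen with earlier results of these data known. Named members are Slc25a25 and Slc25a20, called members with a log2 change of at least 0.5 or the lowest p, the highest member of each role group, those whose effect differed between times with the lowest p, and in nuclei those with the lowest p, those called in a class, or those at 4 times their mean over classes. In each pathway list the called gene with the lowest p is named. Some of the genes that fall under these rules are not reported here. The labels tie nuclei replicate numbers to batches 3 and 4, so the numbers pair those mice. Bulk replicate numbers share no animal, and all bulk libraries of a time carry the same batch label, so the numbers pair none of them. Labels give each library a mouse of its own, and no 2 bulk libraries of a group agreed within sampling noise (lowest chi-square per gene 5.04 over 90 pairs). Alternatives are reported in the closing section, and those on adipocyte markers were chosen after seeing the data.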

Additional observations from a re-analysis of the deposited data

Results flagged for a closer look

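At 24 h, 2 values of UNx replicate 6 lay far from the other 5 UNx kidneys, by a gap above Dixon's 95% critical value. Slc25a3 was at 297 CPM there, against 341.5 CPM for the nearest kidney (0.664 of the range), and Slc25a23 at 200.7 CPM, against 157.9 CPM (0.768 of the range). Of 54 groups of 6 that were examined 2 had such a value, and chance gives about 1 in 20. Both values came from 1 library, so they are not separate cases. Its pseudogene score was 0.884, against 0.674 to 0.706 in the other 5 UNx kidneys at 24 h. The part of the score in these values was not tested.

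The other values are differences of the UNx effect between times that passed the test (edgeR, adjusted p under 0.05 over all genes, log2 scale). From 24 to 48 h these were 1.23 for Slc25a23, 0.48 for Slc25a39, 0.34 for Slc25a12, −0.68 for Slc25a3, −0.63 for Slc25a11 and −0.58 for Slc25a20. From 48 to 72 h they were 0.57 for Slc25a14, 0.34 for Slc25a32, −0.77 for Slc25a23, −0.59 for Slc25a39 and −0.29 for Slc25a12. From 24 to 72 h they were −0.61 for Slc25a20 and −0.45 for Slc25a11. With the pseudogene score as a covariate none of these was called, and from 24 to 48 h Slc25a3 and Slc25a11 changed sign, to 0.13 and 0.060. The 48 h effects include UNx replicates 1 to 5, which stood apart.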

How the results depend on the processing

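The number of members called (17, 16 and 3 at 24, 48 and 72 h) stayed within 1.5 times under most alternatives at 24 and 48 h, with 14 to 17 and 14 to 21 calls when 1 library was left out. With the pseudogene score as a covariate 0 members were called at 24, 48 and 72 h, and 0 in each difference between times. That fit can hardly tell score and nephrectomy apart at 24 and 48 h, and the share of all genes called in it is not given here. The 0 is therefore no result about the members. Without UNx replicates 1 to 5, 0 were called at 48 h. At 72 h DESeq2 and limma voom called 5, and leaving out 1 library gave 1 to 5, with 1 without sham replicate 3 or UNx replicate 1, 3 or 4 and 5 without UNx replicate 6. Without libraries over 10 CPM of adipocyte markers 0 were called at 72 h, and without those over 50 CPM 5. The 10 CPM limit could not be run at 48 h. The causes were not tested.

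The bulk replicate numbers did not pair the libraries: same-numbered libraries correlated from −0.295 to 0.141, and 2 of 18 matched their own number best. With a replicate block 15, 18 and 1 members were called at 24, 48 and 72 h, and 20, 7 and 2 in the differences. In nuclei the replicate block called 1 member over all nuclei and 7 pairs of member and class, and DESeq2 called 1 pair.

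Values that changed sign were those of Slc25a23 (0.12 at 24 h and −0.16 at 48 h with the score, −0.18 at 48 h without UNx replicates 1 to 5), Slc25a15 at 48 h (0.085 and 0.069), and Slc25a3 and Slc25a11 in 48 against 24 h (0.13 and 0.060 with the score). Slc25a20 was at −0.035 at 72 h with the score. Without 1 library it ran from −0.000146 to 0.073 at 48 h and from −0.030 to 0.062 at 72 h. Without 1 mouse it ran from −0.040 to 0.27 in all nuclei, −0.26 to 0.15 in PTS2 and −0.29 to 0.18 in PTS3, where the lone mouse of a group is assumed to vary like the others. Calls in nuclei are limited by 2 mice a group.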
